A study of Mus musculus with 16 samples.

Results

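The genes described here encode the subunits of the oxidative phosphorylation system in mouse liver. They were taken by name from the array, as every gene whose name starts with Nduf, Uqcr or Atp5, the genes Sdha, Sdhb, Sdhc and Sdhd, and every gene named Cox followed by a digit from 4 to 8. This gave 92 of the 37074 gene names on the array, carried by 143 probes. By their names, 38 belonged to complex I, 4 to complex II, 8 to complex III, 17 to complex IV and 15 to complex V. The names also took in 7 assembly factors of complex I (Ndufaf1 to Ndufaf7), which were kept apart, and 3 genes that encode no subunit, Atp5s, Atp5sl and the pseudogene Atp5c1-ps. Cytochrome c, cytochrome c1 and the assembly factors of the other complexes have other names and served as lists for comparison, while Cox5b and the subunits encoded in mitochondrial DNA were not analysed here.

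Oxidative phosphorylation is the last stage of respiration in mitochondria. Complex I (NADH dehydrogenase) and complex II (succinate dehydrogenase, which is also an enzyme of the TCA cycle) pass electrons to ubiquinone, complex III (the cytochrome bc1 complex) passes them to cytochrome c, and complex IV (cytochrome c oxidase) passes them to oxygen. Complexes I, III and IV pump protons across the inner membrane, and complex V (ATP synthase) uses their return to make ATP. Hepatocytes are rich in mitochondria and use this ATP for gluconeogenesis and urea synthesis, among other work. All subunits of complex II are encoded in the nucleus, whereas the other complexes combine nuclear subunits with subunits made inside the mitochondrion.

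Livers came from male C57BL/6 mice aged 10 weeks, fed a normal chow and never treated with antibiotics. The 6 control mice (Conv + PBS) received the vehicle, reduced PBS, although some of their labels call them not transplanted. The 5 Conv + LM mice received caecal content of lean chow-fed donors (lean microbiota), and the 5 Conv + OM(HFD) mice received that of donors made obese by a high-fat diet (obese microbiota). Donor content was pooled and recipients were housed in groups, so mice of 1 group shared an inoculum and could share a cage. The 3 comparisons ask how liver expression differed between each transfer and the vehicle, and between the 2 transfers. In whole liver, fewer cells of a type and less RNA per cell cannot be told apart.

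Each mouse was measured on 1 single-colour Agilent array. Levels are the log2 signal of a probe relative to the 75th percentile of its array, so a level of 0 is the brightness of that percentile, and levels of different genes are not compared because probes differ in brightness. The raw 75th percentile ran from 221.2 to 315.6 intensity units, and 49.75% to 58.33% of probes were well above background on an array. The arrays lay on 2 slides, each with its own scan time, and both slides held mice of all 3 groups. Mouse 1 (Conv + PBS) and mouse 25 (Conv + OM(HFD)) stood apart from the other mice. They lay at -45.01 and -46.95 on the first principal component of all genes, and their neutrophil markers were 3.73 and 3.25 above the mean of their group (log2, mean of 4 kept markers of 5). Their Kupffer cell markers were 1.69 and 0.79 above it (mean of 5 markers of 5). The main results are given with and without them. Hepatocyte markers were well above background on every array, with Alb between 10.45 and 10.90.

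Of the 92 genes, 89 had a probe that 5 or more of the 16 arrays showed well above background, and for 88 of these 89 all 16 arrays did. The exception was Cox6a2, the heart and skeletal muscle form of a complex IV subunit, which reached this on 15 arrays. The 3 genes left out were also tissue forms of complex IV subunits. Cox7b2 and Cox8c (testis) were well above background on 3 arrays and 1 array, and Cox8b (heart and skeletal muscle) on 1 array. No spot of a member was saturated. The spot of Ndufa1 in mouse 5 of Conv + PBS was marked as an outlier by the scanner software and left out, so the mean level of complex I leaves out Ndufa1, and its values in Conv + PBS come from 5 mice.

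The nuclear genes of the system are known targets of the transcription factors NRF1 (motif GCGCATGCG), GABPA (an ETS factor, CCGGAAG) and YY1 (AANATGGCG). These letters were searched on both strands in windows from 250 bases before to 50 bases after the annotated start in RefSeq (GRCm38.p6), which held 73 of the 89 genes. Any of the 3 motifs occurred in 31 of the 73 windows (42.5%), against 12.5% of all 27025 windows of the same length. NRF1 letters were in 10 windows (13.7%, against 1.81%), GABPA letters in 16 (21.9%, against 9.12%) and YY1 letters in 9 (12.3%, against 2.51%). The windows below belong to subunits whose levels are described further down, namely Ndufs7 (chr10:80249199-80249498, plus strand), Sdhb (chr4:140961021-140961320, plus strand), Uqcrc1 (chr9:108936398-108936697, plus strand), Cox6b1 (chr7:30626065-30626364, minus strand) and Atp5o (chr16:91931581-91931880, minus strand), shown because they hold each kind of match and, in Atp5o, none. Capitals mark the match, 5′ to 3′ on the strand of the gene.
Ndufs7: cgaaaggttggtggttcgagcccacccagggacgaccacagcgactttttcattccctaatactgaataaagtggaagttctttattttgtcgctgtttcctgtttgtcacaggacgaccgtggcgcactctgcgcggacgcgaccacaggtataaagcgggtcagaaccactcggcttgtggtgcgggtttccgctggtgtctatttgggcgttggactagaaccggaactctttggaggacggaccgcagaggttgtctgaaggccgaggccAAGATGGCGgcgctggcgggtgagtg
Sdhb: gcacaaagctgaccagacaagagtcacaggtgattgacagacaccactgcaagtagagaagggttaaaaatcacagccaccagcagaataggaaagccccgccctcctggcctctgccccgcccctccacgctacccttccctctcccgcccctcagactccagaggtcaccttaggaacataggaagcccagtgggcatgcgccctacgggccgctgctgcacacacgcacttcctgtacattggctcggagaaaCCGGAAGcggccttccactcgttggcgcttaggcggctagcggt
Uqcrc1: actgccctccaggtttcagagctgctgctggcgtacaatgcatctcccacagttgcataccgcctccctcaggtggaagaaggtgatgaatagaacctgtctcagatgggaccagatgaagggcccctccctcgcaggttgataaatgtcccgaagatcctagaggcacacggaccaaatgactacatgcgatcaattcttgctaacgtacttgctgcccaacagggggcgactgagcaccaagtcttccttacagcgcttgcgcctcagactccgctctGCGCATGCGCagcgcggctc
Cox6b1: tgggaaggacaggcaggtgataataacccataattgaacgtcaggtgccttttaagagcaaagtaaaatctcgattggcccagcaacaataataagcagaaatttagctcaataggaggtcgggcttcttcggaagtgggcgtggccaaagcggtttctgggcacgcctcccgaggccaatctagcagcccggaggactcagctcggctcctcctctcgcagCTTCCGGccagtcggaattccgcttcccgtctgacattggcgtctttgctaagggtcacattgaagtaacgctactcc
Atp5o: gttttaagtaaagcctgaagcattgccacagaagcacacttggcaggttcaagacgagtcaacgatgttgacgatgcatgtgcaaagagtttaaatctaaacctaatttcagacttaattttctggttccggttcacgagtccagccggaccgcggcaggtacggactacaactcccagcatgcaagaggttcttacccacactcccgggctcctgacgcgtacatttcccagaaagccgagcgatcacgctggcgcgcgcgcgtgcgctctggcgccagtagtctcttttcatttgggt

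In Ndufs7 the YY1 letters lay at bases 275 to 283 of the window, just after the start. In Sdhb the GABPA letters lay at bases 257 to 263. In Uqcrc1 NRF1 letters lay on both strands at bases 281 to 290, since the motif is nearly its own reverse complement. In Cox6b1 the GABPA letters lay on the reverse strand at bases 223 to 229. A match is a description of the letters only, and binding of these factors was not measured.

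In each comparison no member passed an adjusted p of 0.05 by limma, and the same held for all 20404 genes tested, of which 0% passed. Differences are therefore given as values, with the unadjusted limma p and an exact two-sided permutation test over mice for single genes. The smallest p this test allows was 0.00216 with 5 against 6 mice and 0.00794 with 5 against 5. In the comparisons with Conv + PBS the 95% interval of a member's difference reached a median of 0.18 on the log2 scale to either side, and in Conv + OM(HFD) against Conv + PBS it lay wholly within 0.5 of zero for 84 of 89 members. No member had groups that did not overlap in any comparison, where 0.23%, 0.279% and 0.436% of all genes did in Conv + OM(HFD) against Conv + PBS, Conv + LM against Conv + PBS and Conv + OM(HFD) against Conv + LM.

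Between Conv + OM(HFD) and Conv + PBS the subunits were lower in mean by a small amount in all 5 complexes. The mean was lower for 78 of 89 members (87.64%), where 50.7% of all genes were lower. The median difference of the members was -0.07 on the log2 scale, or -4.47%, against -0.002 for all genes. All 15 genes of complex V and all 4 of complex II were lower, as were 35 of 38 of complex I, 7 of 8 of complex III and 10 of 14 of complex IV. The median difference was -0.06 in complex I, -0.09 in complex II, -0.06 in complex III, -0.05 in complex IV and -0.07 in complex V. These shares describe genes that vary together from mouse to mouse, as shown further down, so they do not count as separate observations.

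In this comparison no complex had a difference between group means larger than the SD between mice. The mean level of complex V was 7.55, 7.67 and 7.80 in the lowest, median and highest Conv + PBS mouse, and 7.49, 7.65, 7.52, 7.64 and 7.66 in Conv + OM(HFD) mice 25, 26, 28, 29 and 30. Mice 25 and 28 lay below every control, and the other three among the controls. The group means differed by -0.08, with an SD within groups of 0.09. Complex II, the smallest, had the largest SD within groups (0.103), with 0.14 in Conv + OM(HFD). In Conv + PBS complex V varied more (SD 0.102 against 0.097), and in Conv + LM complex II varied least of all complexes (0.06). The mean level of complex II was 6.29, 6.47 and 6.59 in the lowest, median and highest Conv + PBS mouse, and 6.23, 6.42, 6.24, 6.41 and 6.56 in the Conv + OM(HFD) mice in the same order. Mice 25 and 28 were again below every control, while mouse 30 lay near the highest control.

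**Figure D1:**
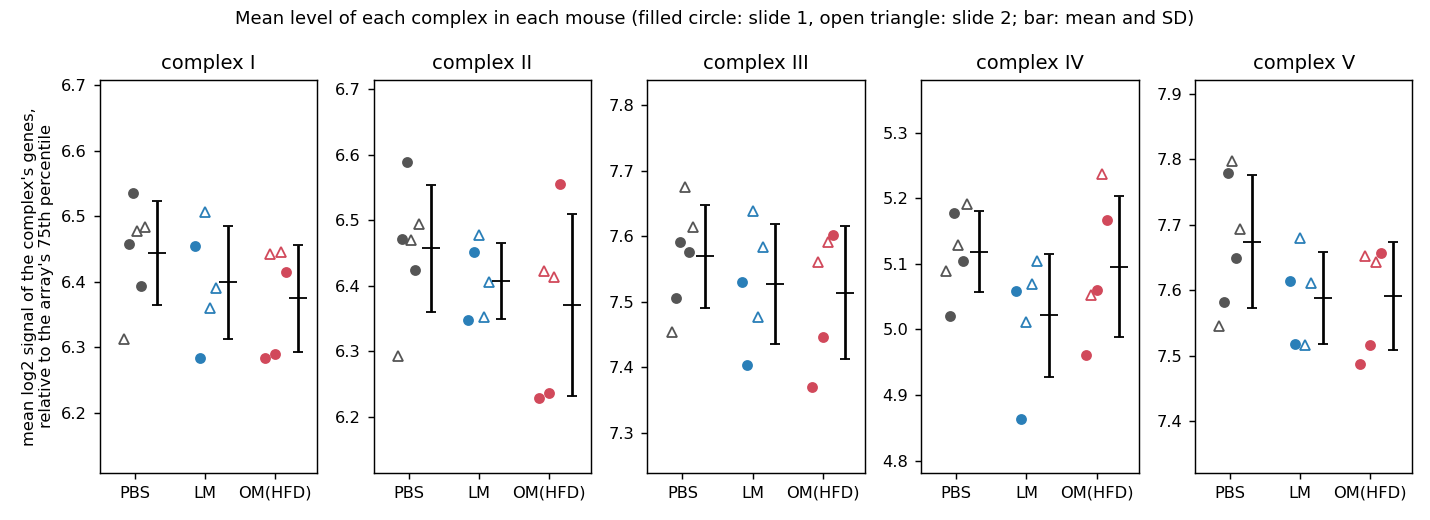
Mean level of the genes of each complex in each mouse (vertical axis, log2 signal relative to the 75th percentile of the array, each panel on its own range), with the mean and SD of each group beside the points, filled circles for slide 1 and open triangles for slide 2. The groups overlap in all 5 complexes, and the lowest Conv + OM(HFD) mice (25 and 28 in complexes I, II, III and V) both lie on slide 1.

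The difference between Conv + OM(HFD) and Conv + PBS was larger on 1 of the slides. Among slide 1 mice (3 of each group) the median difference of the members was -0.11, and among slide 2 mice (3 Conv + PBS, 2 Conv + OM(HFD)) it was -0.01. It stayed at -0.07 without mice 1 and 25, and was -0.09 without mouse 1 and -0.04 without mouse 25.

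Of single members, 2 were lower at an unadjusted limma p under 0.05, where 1.76% of all genes were lower and 1.49% higher, and no member was higher at that level. Both were assembly factors of complex I. By the exact test alone Ndufc2 (-0.14, exact p = 0.0238) and Ndufa9 (-0.12, exact p = 0.0411) of complex I were also lower at that level. So was Atp5j2 (-0.13, exact p = 0.0455) of complex V. All had a limma adjusted p of 1 and were picked out for these values. The exact test was run for members only, so it has no share of all genes to set beside them. The other, dimmer probe of Atp5j2 gave 0.21. Ndufaf5, which hydroxylates an arginine of the core subunit NDUFS7, had levels of 0.55, 0.66 and 0.70 in the lowest, median and highest Conv + PBS mouse, and 0.39, 0.37, 0.40, 0.72 and 0.39 in Conv + OM(HFD) mice 25, 26, 28, 29 and 30. Mouse 29 was the highest of both groups and the other four Conv + OM(HFD) mice lay below every control. The difference was -0.18 (SE 0.08, limma p = 0.0432, adjusted p = 1, exact p = 0.0433). The other, dimmer probe of Ndufaf5 gave -0.003.

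Ndufaf6, an early assembly factor, had levels of 2.78, 2.88 and 2.98 in the lowest, median and highest Conv + PBS mouse, and 2.55, 2.69, 2.90, 2.80 and 2.68 in the Conv + OM(HFD) mice in the same order. Mice 25, 26 and 30 lay below every control and mice 28 and 29 among them. The difference was -0.16 (SE 0.07, limma p = 0.0457, adjusted p = 1, exact p = 0.0433). Its other probes gave -0.11 and -0.02. The next 2 members by p belonged to ATP synthase. They were Atp5f1, subunit b of the stator stalk (-0.14, limma p = 0.102, adjusted p = 1, exact p = 0.106), and Atp5g1, 1 of the genes for the c subunit of the rotor ring (-0.12, limma p = 0.106, adjusted p = 1, exact p = 0.0952). The other probes gave -0.07 and 0.18 for Atp5f1, and -0.13 and 0.08 for Atp5g1. The probe of Ndufaf5 (mm9 chr2:140014595-140019324, plus strand) and that of Ndufaf6 (mm9 chr4:10978306-10978365, minus strand) are shown with that of Cox7a1 (mm9 chr7:30970337-30970948, plus strand), since Ndufaf5 and Ndufaf6 are the members with a limma p under 0.05 against Conv + PBS here and Cox7a1 has the smallest limma p in Conv + LM against Conv + PBS. Of these intervals, those of Ndufaf5 and Cox7a1 are longer than the probe.
Ndufaf5: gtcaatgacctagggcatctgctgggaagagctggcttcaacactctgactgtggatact
Ndufaf6: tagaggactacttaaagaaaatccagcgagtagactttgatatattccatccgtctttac
Cox7a1: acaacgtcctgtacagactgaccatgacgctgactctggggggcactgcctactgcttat

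Between Conv + LM and Conv + PBS the subunits were likewise lower in mean, and the assembly factors were not. This comparison shares its control mice with the former one, so the 2 are not independent. The mean was lower for 69 of 89 members (77.53%), where 53.1% of all genes were lower, with a median of -0.05 (-3.41%) against -0.01 for all genes. All 15 genes of complex V, all 14 of complex IV and all 8 of complex III were lower, as were 26 of 38 of complex I and 3 of 4 of complex II. The median difference was -0.09 in complex V, -0.07 in complex IV, -0.06 in complexes I and II, and -0.04 in complex III. The mean level of complex IV was 5.02, 5.12 and 5.19 in the lowest, median and highest Conv + PBS mouse, and 5.06, 4.86, 5.01, 5.07 and 5.10 in Conv + LM mice 13 to 17. Mice 14 and 15 lay below every control, and the group means differed by -0.10, with an SD within groups of 0.09. This mean includes the tissue forms. As a single gene, mouse 15 lay below every control only for the tissue forms Cox6a2 (-3.76), Cox6b2 (-1.82) and Cox7a1 (2.1). For every other complex IV gene kept, mouse 15 was not below the lowest control. Of the assembly factors of complex I, 5 of 7 were higher, with a median of 0.07. Among slide 1 mice the median of the members was -0.08 and among slide 2 mice -0.04, and it was -0.02 without mouse 14 of Conv + LM.

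Of single members, 2 were lower at an unadjusted limma p under 0.05, where 2.09% of all genes were lower and 1.79% higher. By the exact test alone Atp5j2 (-0.15, exact p = 0.0498), Cox5a (-0.16, exact p = 0.0498) and Ndufaf6 (-0.11, exact p = 0.039) were also lower at that level. They were again picked out for these values, and the exact test has no share of all genes to set beside them. The other probe of Atp5j2 gave 0.15, and those of Ndufaf6 gave -0.06 and -0.07. Cox7a1 is the form of a complex IV subunit found in heart, skeletal muscle and brown fat. Its levels were 2.30, 2.59 and 2.77 in the lowest, median and highest Conv + PBS mouse, and 2.54, 2.23, 2.10, 2.38 and 2.25 in Conv + LM mice 13 to 17. Mice 14, 15 and 17 lay below every control. The difference was -0.26 (SE 0.12, limma p = 0.0371, adjusted p = 0.998, exact p = 0.0628).

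Ndufb5, an accessory subunit of the membrane arm of complex I, had levels of 6.44, 6.61 and 7.49 in the lowest, median and highest Conv + PBS mouse, and 6.36, 6.35, 6.51, 6.36 and 6.45 in Conv + LM mice 13 to 17. The control at 7.49 was mouse 2, far above the other five. The difference was -0.33 (SE 0.15, limma p = 0.0412, adjusted p = 0.998, exact p = 0.0216), and -0.18 without mouse 2. The other probe of Ndufb5 gave -0.13 and had an r of -0.04 with the first across the 16 mice. The next 2 members were Atp5f1 (-0.17, limma p = 0.0619, adjusted p = 0.998, exact p = 0.0628) and Ndufaf3, an assembly factor, which was higher (0.27, limma p = 0.0654, adjusted p = 0.998, exact p = 0.102). The other probes of Atp5f1 gave 0.005 and 0.02.

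Between Conv + OM(HFD) and Conv + LM the subunits showed no common direction under the scaling used here. The mean was lower for 46 of 89 members (51.69%), where 49% of all genes were lower, and the median was -0.002, against 0.003 for all genes. With quantile normalisation 62 of 89 were lower, with a median of -0.03, against -0.003 for all genes. Leaving out mouse 14 gave 68 of 89 lower, and leaving out mouse 15 gave 35. Complexes differed in sign. In complex IV 10 of 14 genes were higher, with a median of 0.06, and in complex V 11 of 15 were higher, with a median of 0.01. In complexes I, II and III 20 of 38, 3 of 4 and 5 of 8 were lower. All 7 assembly factors of complex I were lower, with a median of -0.17. The median of all members was -0.01 among slide 1 mice and 0.03 among slide 2 mice, and it was -0.04 without mouse 14.

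A single member was higher at an unadjusted limma p under 0.05, where 1.38% of all genes were higher and 1.29% lower. This was Cox6b2, the testis form of a complex IV subunit, a dim probe below the 75th percentile of every array. Its levels were -1.56, -1.95, -1.82, -1.16 and -1.204 in Conv + LM mice 13 to 17, and -1.45, -1.53, -1.13, -0.55 and -0.90 in Conv + OM(HFD) mice 25, 26, 28, 29 and 30. Mice 28, 29 and 30 lay above every Conv + LM mouse. The difference was 0.43 (SE 0.19, limma p = 0.0426, adjusted p = 0.999, exact p = 0.103), and 0.29 without mouse 29. The next were Ndufaf4, an assembly factor (-0.27, limma p = 0.0503, adjusted p = 0.999, exact p = 0.0714), Ndufab1, the mitochondrial acyl carrier protein, which is also a subunit of complex I (-0.16, limma p = 0.0813, adjusted p = 0.999, exact p = 0.0556), and Ndufa4l2, a relative of Ndufa4 that responds to hypoxia (-0.42, limma p = 0.0965, adjusted p = 0.999, exact p = 0.159). The other, dimmer probe of Ndufab1 gave 0.09, and Ndufa4l2 was at -0.27 without mouse 13 of Conv + LM. By the exact test alone Ndufb5 was higher (0.14, exact p = 0.0476), with 0.06 from its other probe and no share of all genes for this test.

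**Figure D2:**
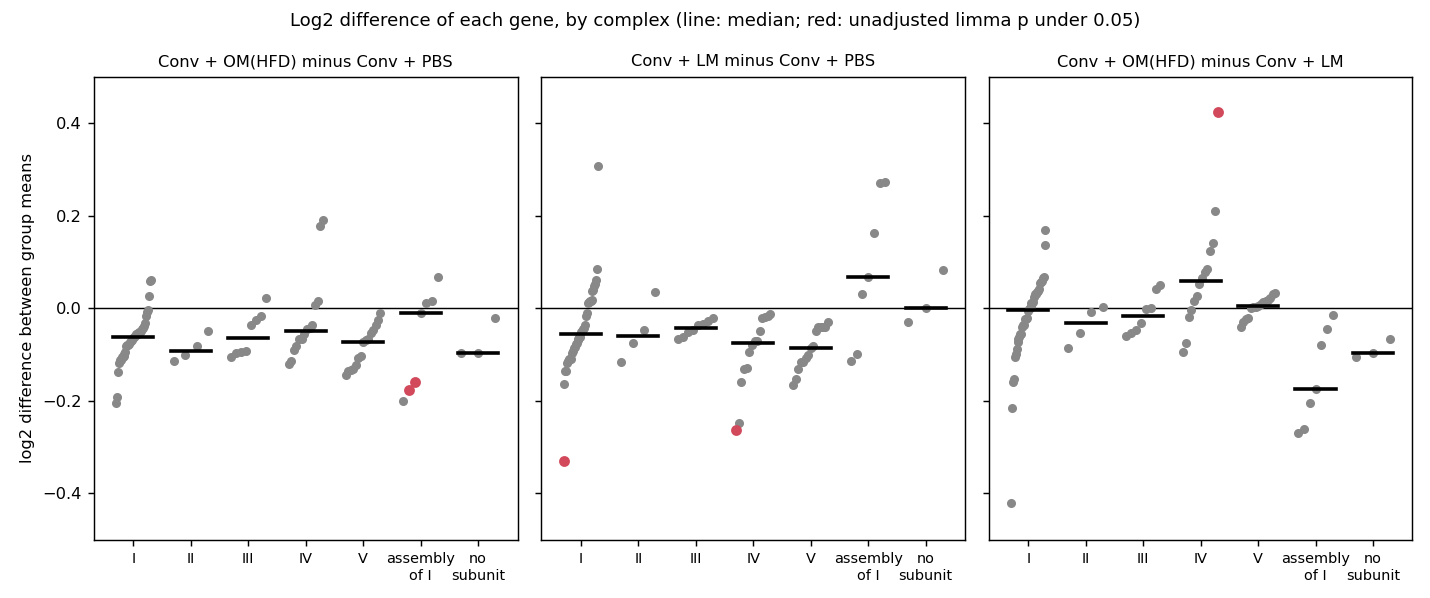
Log2 difference between group means for each of the 89 genes (points) in the 3 comparisons, by complex, with the median of each complex as a bar and genes at an unadjusted limma p under 0.05 in red. In both comparisons with Conv + PBS all 15 complex V genes lie below 0, and in the comparison of the 2 transfers all 7 assembly factors of complex I lie below 0.

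By their brightest probe, the core and central subunits chosen for naming differed by no more than 0.16 in any comparison. Some of their dimmer probes went past this, all of them lower. In Conv + OM(HFD) against Conv + PBS these gave -0.23 for Atp5a1, -0.22 for Sdhb and -0.17 for Sdha. In Conv + LM against Conv + PBS another probe of Sdha gave -0.20. The values below are those of the brightest probe. In complex I, Ndufv1 (which binds NADH) was at -0.10 in Conv + OM(HFD) and -0.05 in Conv + LM against Conv + PBS, and its partner Ndufv2 at -0.11 and 0.04. Ndufs1 was at -0.08 and -0.04, and Ndufs3 at -0.04 and 0.02. Ndufs7 and Ndufs8, which hold clusters on the way to ubiquinone, were at -0.07 and 0.02 and at -0.06 and -0.05. The largest of these in Conv + OM(HFD), Ndufv2, had a 95% interval of -0.29 to 0.07.

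In complex II, the flavoprotein Sdha was at -0.05 in Conv + OM(HFD) and 0.04 in Conv + LM against Conv + PBS, and the iron-sulphur subunit Sdhb at -0.11 and -0.12. The membrane anchors were at -0.10 and -0.05 (Sdhc) and at -0.08 and -0.07 (Sdhd). Levels of Sdhb were 7.72, 7.78 and 7.82 in the lowest, median and highest Conv + PBS mouse, and 7.54, 7.87, 7.46, 7.68 and 7.78 in Conv + OM(HFD) mice 25, 26, 28, 29 and 30. The control mice were close together, with an SD of 0.04 (n = 6), and the Conv + OM(HFD) mice spread on both sides of them, with an SD of 0.17 (n = 5).

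In complex III, the core proteins Uqcrc1 and Uqcrc2 and the Rieske iron-sulphur protein Uqcrfs1 were at -0.10, -0.09 and -0.11 in Conv + OM(HFD), and at -0.04, -0.05 and -0.05 in Conv + LM. In complex IV, Cox4i1 was at -0.04 and -0.09 and Cox5a at -0.04 and -0.16, the latter with an interval of -0.33 to 0.01. In complex V, the catalytic head subunits Atp5a1 and Atp5b were at -0.05 and -0.10 in Conv + OM(HFD) and at -0.05 and -0.11 in Conv + LM. The central stalk subunit Atp5c1 was at -0.07 and -0.09, and Atp5o, which ties the stator to the head, at -0.02 and -0.04. Every 95% interval named here included 0.

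Across mice the subunits varied together. For this, each value was taken as its deviation from the mean of its group, so that differences between groups do not enter, and Pearson's r was computed over the 16 mice for each pair. The median r of the 3916 pairs among the 89 members was 0.36, and 81.08% of pairs were above 0. Among all 206603628 pairs of the 20328 genes with a value in every mouse the median was 0.02, and 52.24% were above 0. Among the 74 subunits that are no tissue form the median was 0.48, with 91.97% above 0. Among the 7 assembly factors of complex I it was 0.13, and among the 5 tissue forms with a kept probe -0.07. All correlations here are descriptions of 16 mice, measured on 2 slides, and have no test.

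Over all pairs, complexes were little tighter within than between. Complex II (6 pairs) was tighter, with a median r of 0.55 within and 0.25 to 0.45 with each other complex. Without mice 1 and 25 these were 0.43 and 0.14 to 0.29. The median r was 0.46 in complex I, 0.55 in complex II, 0.47 in complex III, 0.35 in complex IV and 0.53 in complex V. Over the 5 complexes, pairs of the same complex had a median of 0.47 (933 pairs) and pairs of different complexes 0.43 (2148 pairs). Between complexes the highest medians were for III with V (0.56), I with V (0.50) and I with III (0.50), and the lowest for II with IV (0.25). All pairs within complexes II, III and V were above 0. Without mice 1 and 25 the medians were 0.38 (I), 0.43 (II), 0.35 (III), 0.30 (IV) and 0.48 (V), with 0.38 for pairs of the same complex, 0.34 for pairs of different complexes and 0.40 among the 74 subunits. Of the pairs within complexes III and V, 92.86% and 99.05% were then above 0.

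**Figure D3:**
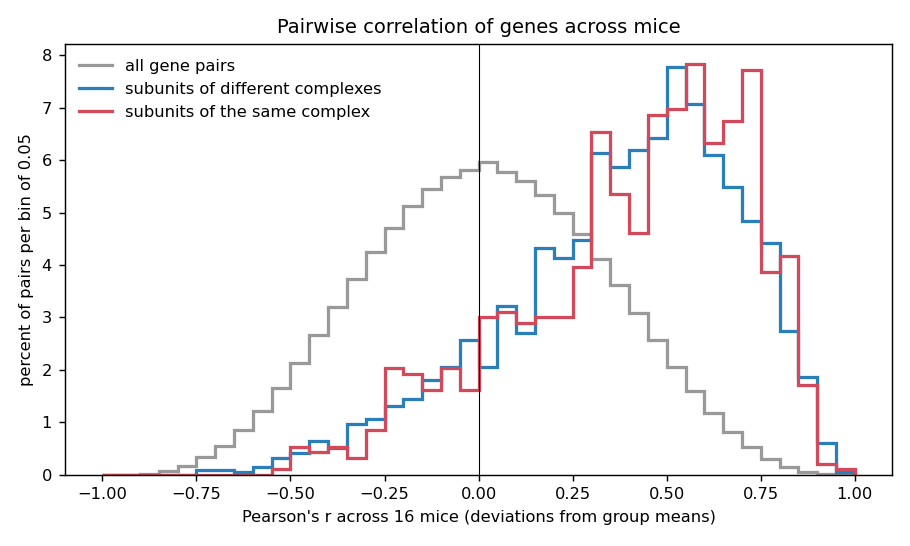
Distribution of Pearson's r across the 16 mice (horizontal axis) as percent of pairs in bins of 0.05 (vertical axis) for all gene pairs (grey), subunits of different complexes (blue) and subunits of the same complex (red). Both curves of subunits lie well to the right of that for all pairs (medians 0.43 and 0.47, against 0.02) and largely over each other.

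The mean of each complex followed the mean of the others. Pearson's r over 16 mice was 0.91 for complex III (Spearman's rho 0.86, r = 0.88 without the 2 mice farthest from the median), 0.90 for complex V (rho 0.86, r = 0.86), 0.87 for complex I (rho 0.84, r = 0.83), 0.68 for complex II (rho 0.66, r = 0.60) and 0.60 for complex IV (rho 0.57, r = 0.56). Without its 4 tissue forms, complex IV was at 0.82. Without mice 1 and 25 and with group means taken anew, the values were 0.81 (I), 0.47 (II), 0.85 (III), 0.52 (IV) and 0.86 (V), and the median r of all member pairs was 0.28, against 0.02 for all gene pairs. The values were lower under other scalings. With quantile normalisation the median r of member pairs was 0.24 (all pairs 0.009), with the authors' own log2 values 0.20 (all pairs 0.006), and after subtracting from each mouse the median deviation of all genes 0.25 (all pairs -0.002).

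Single mice moved as a whole. In mouse 1 (Conv + PBS) 10 of 89 genes were above the mean of the group, in mouse 25 (Conv + OM(HFD)) 9 and in mouse 28 (Conv + OM(HFD)) 14. In mouse 3 (Conv + PBS) 79 were above it, in mouse 15 (Conv + LM) 76 and in mouse 29 (Conv + OM(HFD)) 73. The mean of the 5 complexes deviated by -0.11 in mouse 1, -0.12 in mouse 25 and -0.09 in mouse 14 at the low end, and by 0.09 in mouse 30, 0.08 in mouse 3 and 0.08 in mouse 29 at the high end. This range within groups exceeded the largest difference between group means, which was -0.06 for the mean of the 5 complexes in both comparisons with Conv + PBS. Of the low mice named here (1, 14, 25 and 28), mouse 14 (Conv + LM) was the exception. There complex II was 0.05 above its group mean while complexes I, III and IV were -0.12, -0.12 and -0.16 from theirs. Mice lower by less were mixed too, as in mouse 16 (Conv + LM), where complex IV was 0.05 above its group mean.

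**Figure D4:**
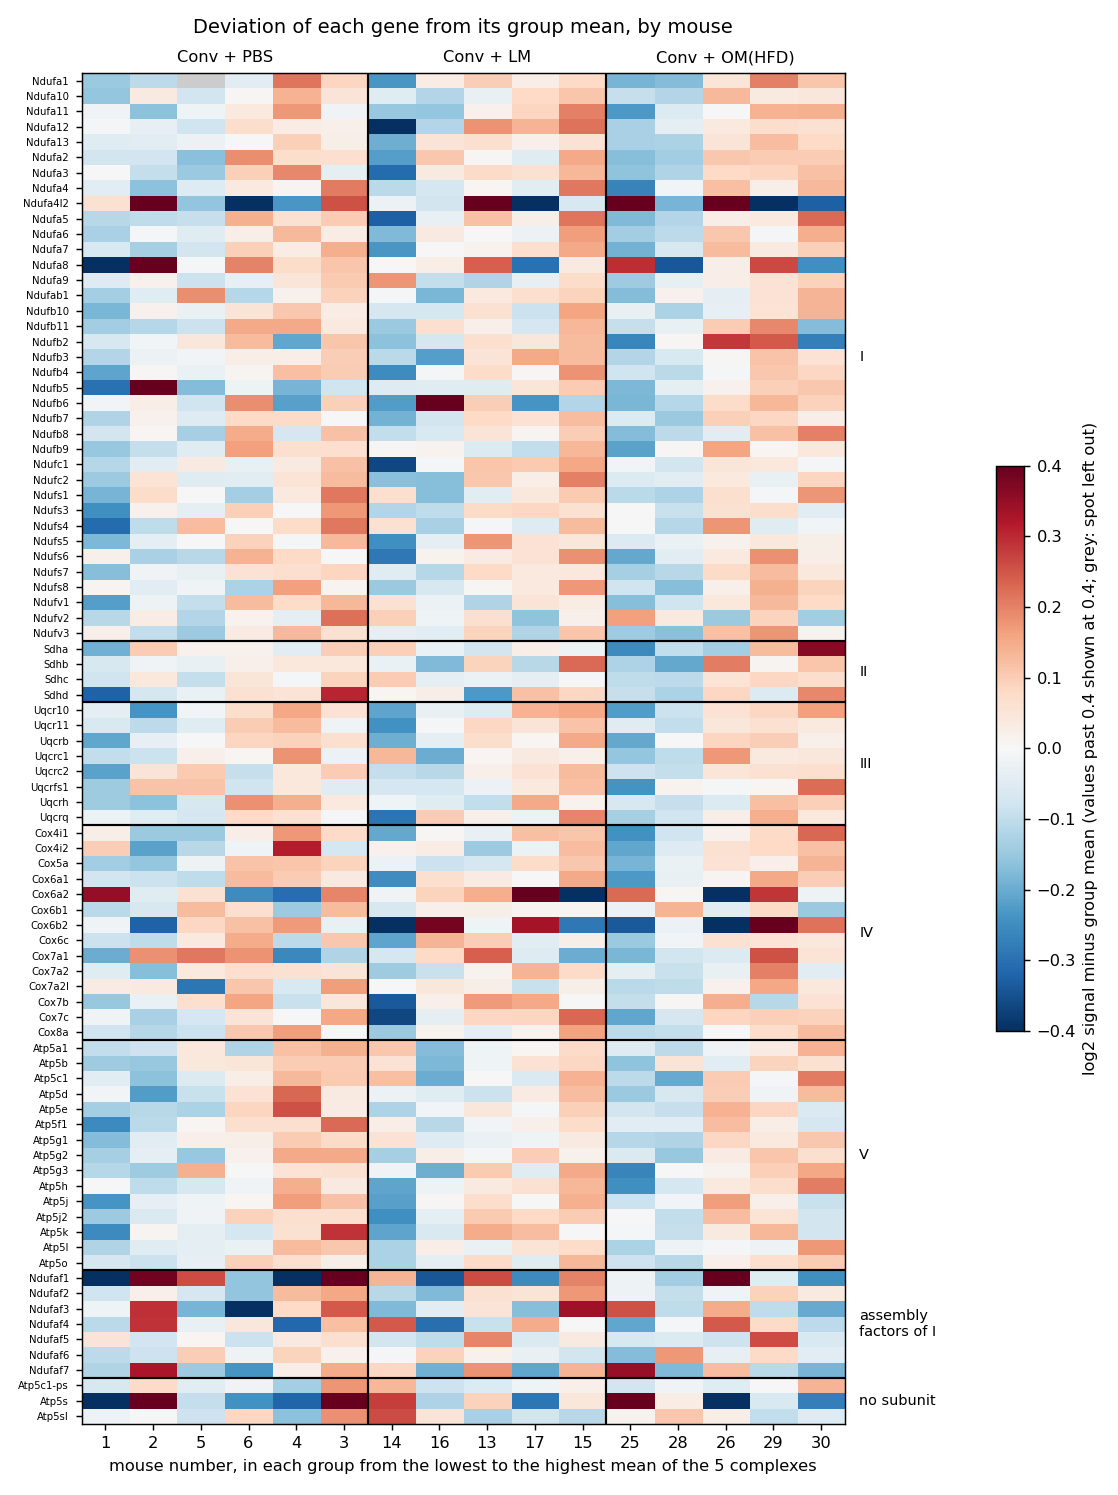
Deviation of 88 of the 89 genes (rows, by complex) from its group mean in each of the 16 mice (columns, ordered within a group by the mean of the 5 complexes), on a log2 colour scale that ends at 0.4 to either side, with grey for the spot left out. Columns 1, 25 and 28 are mostly blue (10, 9 and 14 of 89 genes above the group mean) and columns 3 and 15 mostly red (79 and 76), while Ndufa4l2, Cox6a2, Atp5s and Atp5sl run against the rest under this scaling (with quantile normalisation Ndufa4l2 has a mean r of 0.11, and with normexp Cox6a2 has 0.02).

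Within a complex the members differed in how closely they followed the other members, measured as the mean r to the other 88. In complex I the highest was Ndufs7 (0.52, above 0 with 83 of 88) and the lowest Ndufa4l2 (-0.12, above 0 with 27). In complex II they were Sdhb (0.40) and Sdha (0.26), in complex III Uqcrb (0.51), which binds near the ubiquinone site, and Uqcrc1 (0.28). In complex IV they were Cox7c (0.46) and Cox6a2 (-0.24, above 0 with 14), and in complex V Atp5o (0.48) and Atp5a1 (0.29). The core subunit Ndufv2 (-0.01) of complex I was near 0, and so was Cox6b1 (0.05) in complex IV. The pair Atp5s and Atp5sl, which are no subunits, stood at -0.12 and -0.21. Some of these values moved with the processing. With normexp background correction the order turned in complex II (Sdhb 0.198, Sdha 0.208) and was nearly level in complex V (Atp5o 0.232, Atp5a1 0.235), and Cox6a2 stood at 0.02. Atp5o fell to 0.214 in the authors' log2 table, and Uqcrb to 0.177 with the mean of all its kept probes. Ndufa4l2 turned positive with quantile normalisation (0.11) and in the authors' log2 table (0.14). Without mice 1 and 25 it was at -0.03 and no longer the lowest of complex I. The highest were then Ndufb4 (0.44) in complex I and, as before, Sdhb (0.35), Uqcrb (0.41), Cox7c (0.44) and Atp5o (0.44) in the others. Sdha (0.06) stayed the lowest of complex II, and the lowest of complexes III and V were Uqcrfs1 (0.07) and Atp5b (0.21). In complex IV Cox7a1 and Cox6a2 stood at -0.12 each.

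The probe that stands for a gene, the brightest, bears on these values. Of the members, 34 had 45 further kept probes, and the r of a further probe with the first was above 0 for 36 of 45, with a median of 0.33. It was 0.54 over the 28 further probes brighter than the 75th percentile and 0.14 over the 17 dimmer ones. The 2 probes of Ndufa5 had an r of 0.92 and those of Uqcr10 an r of 0.93, whereas for Uqcrb the further probes had 0.30 and -0.19 with the first. Of the other members with the highest mean r of their complex, the further probe of Cox7c had an r of -0.05 with the first. That of Atp5o had 0.22 and that of Sdhb 0.55.

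The motif letters did not separate the members by this measure. Among subunits with a window and no tissue form, the median of the mean r was 0.40 for the 27 with any of the 3 motifs and 0.42 for the 36 with none.

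Several complex IV subunits come in forms of which 1 serves most tissues and the other heart, muscle, lung or testis. In liver the forms for most tissues mostly followed the other members more closely than the other forms did, under the scaling used here. The probes of the other forms were dimmer than those of their partners, with mean levels in Conv + PBS of -0.48 for Cox4i2, -3.07 for Cox6a2, -1.29 for Cox6b2, 2.56 for Cox7a1 and -0.50 for Ndufa4l2, against 4.28 for Cox6b1 and 7.03 to 9.86 for the other four partners. The part of brightness in these values was not tested. The mean r was 0.41 for Cox4i1 and 0.21 for its lung form Cox4i2, 0.46 for Cox6a1 and -0.24 for Cox6a2, 0.36 for Cox7a2 and 0.07 for Cox7a1, and 0.46 for Ndufa4 and -0.12 for Ndufa4l2. For Cox6b1 and its testis form Cox6b2 the order was the other way round, at 0.05 and 0.16. Without mice 1 and 25 the order was the same in all 5 pairs, with 0.40 and 0.21 for Cox4i1 and Cox4i2, 0.39 and -0.12 for Cox6a1 and Cox6a2, 0.35 and -0.12 for Cox7a2 and Cox7a1, 0.41 and -0.03 for Ndufa4 and Ndufa4l2, and -0.06 and 0.08 for Cox6b1 and Cox6b2. Cox7b and Cox8a, whose other forms did not pass the filter, were at 0.27 and 0.45, and Cox7a2l, a related factor of respiratory supercomplexes, at 0.25. The SD of deviations was 0.30 for Cox6a2 and 0.30 for Cox6b2 against 0.12 for Cox6a1 and 0.09 for Cox6b1, 0.17 for Cox7a1 against 0.10 for Cox7a2, and 0.37 for Ndufa4l2 against 0.13 for Ndufa4. It was 0.14 for both Cox4i2 and Cox4i1. Probes of such a pair shared few bases in their best ungapped alignment, with 22 of 57 identical for Cox4i1 and Cox4i2 and 20 of 56 for Cox7a1 and Cox7a2.

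By name, Ndufa4 was counted with complex I, although its protein is known as a subunit of complex IV. Its level was 6.86, 7.01 and 7.23 in the lowest, median and highest Conv + PBS mouse, 7.02, 6.90, 7.22, 6.94 and 6.97 in Conv + LM mice 13 to 17, and from 6.71 in mouse 25 to 7.10 in mouse 30 of Conv + OM(HFD). The groups overlapped, with differences of -0.05 and -0.02 against Conv + PBS.

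Other genes of the pathway were followed as lists, by the same deviations over 16 mice against the mean of the 5 complexes. Cytochrome c (Cycs) and cytochrome c1 (Cyc1), which act between complexes III and IV and within complex III, had an r of 0.92 (rho 0.91, r = 0.88 without the 2 mice farthest from the median). The TCA cycle (13 genes) had 0.72 (rho 0.71, r = 0.60), the mitochondrial ribosome (77 genes) 0.63 (rho 0.60, r = 0.69) and the cytosolic ribosome (77 genes) 0.59 (rho 0.64, r = 0.68). The carriers and pores of ADP and phosphate (6 genes) had 0.50 (rho 0.47, r = 0.35) and the regulators of mitochondrial biogenesis (20 genes) 0.47 (rho 0.51, r = 0.26). Assembly factors were further away, with 0.32 for those of complexes II to V (35 genes; rho 0.37, r = 0.43), 0.36 for those of complex I that have other names (7 genes; rho 0.34, r = 0.25) and 0.19 for Ndufaf1 to Ndufaf7 (rho 0.16, r = 0.10). The proteasome list (48 genes, which also holds Psmc3ip, no proteasome subunit) had 0.28 (rho 0.32, r = 0.66).

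Within those lists, the median r between 2 genes was 0.50 in the cytosolic ribosome, 0.29 in the TCA cycle, 0.24 in the mitochondrial ribosome, 0.22 in the proteasome and 0.19 in the assembly factors of complexes II to V. The subunits without tissue forms, at 0.48, lay next to the cytosolic ribosome. Without mice 1 and 25 they were at 0.40, and the cytosolic ribosome at 0.53.

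No gene of these lists passed an adjusted p of 0.05 by limma in any comparison. At an unadjusted p under 0.05, 1 of 20 regulators was higher in the obese microbiota group than in the controls and none lower, where 1.49% of all genes were higher. This was Esrrb, an orphan nuclear receptor with a dim probe (0.54, limma adjusted p = 1). Of the same regulators 2 were higher in the lean microbiota group than in the controls, where 1.79% of all genes were higher. They were Esrrb (0.58) and Tefm, a factor of mitochondrial transcription elongation (0.30), both with a limma adjusted p of 0.998. Both were picked out for these values. The coactivator Ppargc1a was at 0.36 and 0.17, Nrf1 at 0.10 and 0.18, Gabpa at 0.06 and -0.04, and Tfam, which packs and transcribes mitochondrial DNA, at -0.05 and 0.07, all with an unadjusted p over 0.05.

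Between groups the lists showed other directions than the subunits in part. In Conv + OM(HFD) against Conv + PBS, 61 of 77 genes of the cytosolic ribosome were higher (median 0.03), 41 of 77 of the mitochondrial ribosome lower (-0.01), 10 of 13 of the TCA cycle lower (-0.03) and all 6 carriers and pores lower (-0.09). The assembly factors of complexes II to V were split, with 18 of 35 higher (0.0005). In Conv + LM against Conv + PBS, 52 of 77 genes of the cytosolic ribosome were lower (-0.02), 48 of 77 of the mitochondrial ribosome higher (0.03), 7 of 13 of the TCA cycle lower (-0.01) and 26 of 35 assembly factors of complexes II to V higher (0.05). Of the carriers and pores, 5 of 6 were lower (-0.07).

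Measures other than respiration genes moved with the subunits across mice too. The brightness of the array, as log2 of its 75th percentile, had an r of -0.55 with the mean of the 5 complexes (rho -0.55, r = -0.53 without the 2 mice farthest from the median), while the percent of probes well above background had 0.13 (rho 0.13, r = 0.11). After removing the linear relation to brightness, the median r of member pairs was 0.33 and the complexes stood at 0.48 (IV) to 0.89 (III). The first principal component of all genes (20.04% of their variance) had an r of 0.75 (rho 0.66, r = 0.53).

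Among markers of other cells, the Kupffer cell list (Clec4f, Vsig4, Cd5l, Adgre1 and Timd4, all 5 kept) had an r of -0.70 (rho -0.61, r = -0.47 without mice 1 and 25), and the neutrophil list (4 of 5 kept) -0.66 (rho -0.43, r = -0.26). Deviations of the Kupffer cell list ran from -0.67 to 1.69 in Conv + PBS, from -0.29 to 0.25 in Conv + LM and from -0.62 to 0.79 in Conv + OM(HFD). Between groups the median difference of the 5 Kupffer cell markers from Conv + PBS was -0.14 in Conv + OM(HFD) and -0.51 in Conv + LM with all mice, and -0.03 and -0.22 without mice 1 and 25. Between Conv + OM(HFD) and Conv + LM it was 0.37, and 0.19 without them. The median difference of the 4 neutrophil markers was 0.18 in Conv + OM(HFD) and -0.76 in Conv + LM against Conv + PBS, and 1.08 between the transfers. Without mice 1 and 25 these were 0.14, 0.01 and 0.15. Hepatocyte markers (6 of 6) had an r of 0.41 (rho 0.44, r = 0.18). Their part in the variation of the subunits was not tested.

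**Figure D5:**
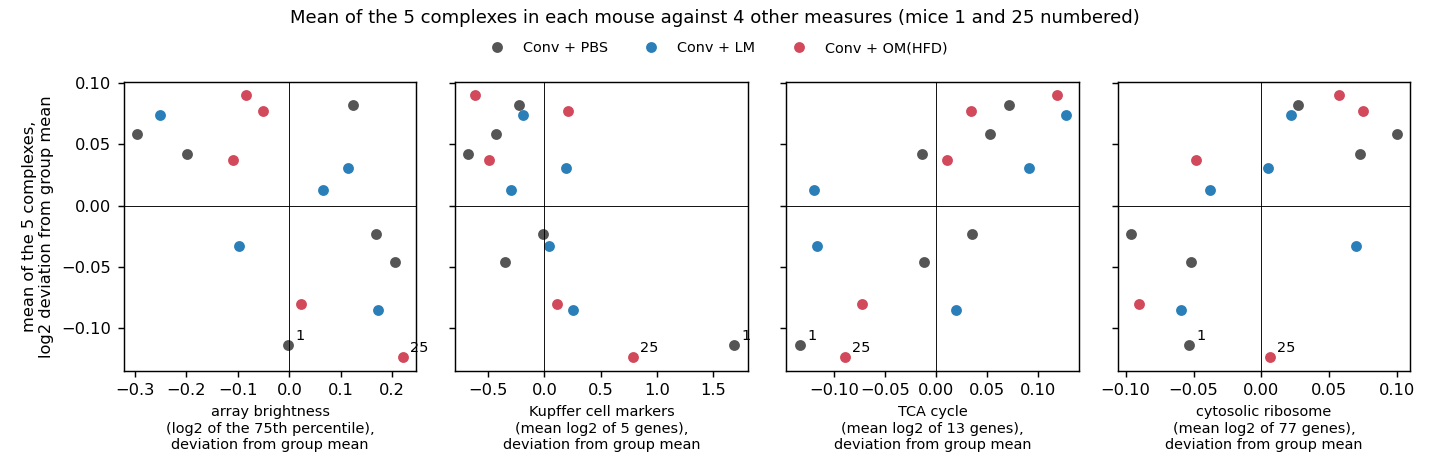
Mean of the 5 complexes in each of the 16 mice (vertical axis) against array brightness, Kupffer cell markers, the TCA cycle and the cytosolic ribosome (horizontal axes), all as log2 deviations from the group mean, coloured by group. Mice 1 and 25 lie lowest on the vertical axis and farthest right for the Kupffer cell markers, and the r of the 4 panels is -0.55, -0.70, 0.72 and 0.59.

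Markers of other tissues were at background in part. Ckm (skeletal muscle) and Cpa1 (pancreas) were well above background on no array. Myh6 (heart), Ucp1 (brown fat), Adipoq (white fat), Pnlip and Prss2 (both pancreas) were so on 1 each. Others were well above background. Mylpf and Tnnt3 (skeletal muscle), Elovl3 (brown fat), Fabp4 (white fat), and Cela1 and Amy2a5 (pancreas) were so on all 16 arrays. Myl7 (heart) was so on 15, Cfd (white fat) on 14, Myh4 (skeletal muscle) on 13 and Tnnt2 (heart) on 12. No marker list of lung or testis was used. Skeletal muscle had 3 of 6 markers kept, heart 2 of 4, brown fat 2 of 3, white fat 3 of 4, pancreas 2 of 5 and red cells 4 of 4. Their r with the mean of the 5 complexes was 0.22, -0.22, 0.65, 0.52, 0.85 and -0.07 (without mice 1 and 25 0.18, -0.51, 0.52, 0.39, 0.78 and 0.23). The 2 genes kept of the pancreas list, Cela1 and Amy2a5, had an r of -0.33 with each other, and the 2 of brown fat, Cidea and Elovl3, an r of 0.28. Whether the RNA of these markers came from other tissue was not tested.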

How the data were processed

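Liver RNA of 16 mice was hybridised to 16 single-colour Agilent arrays, and groups were taken from the labels. The authors read the scans with Agilent Feature Extraction 10.10.1.1, so the deposited values are linear intensity units, less background and with spatial trends of the slide removed. The authors also deposited a log2 table, which matched quantile-normalised log2 median signals (median absolute difference 0.0047) and was used as an alternative.

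Each array was scaled on the log2 scale by subtracting the 75th percentile of its processed intensity, outlier spots (0.188%) were dropped, spots of a probe averaged, and probes well above background on at least 5 arrays kept (30664 of 56605 probes). The brightest kept probe stood for a gene. All 3 groups entered 1 limma fit (limma 3.58.1, R 4.3.3) with group as its only term, two-sided, with Benjamini-Hochberg adjustment over 20404 genes. Single genes also had an exact permutation test. The sources do not say which mice shared a cage, so p-values measure only the spread between these mice. The number of arrays limits the precision. Correlations used deviations from group means. Figures and sequence searches used Python 3.11.15.

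Genes named were the 4 members with the smallest p in each comparison, 20 core subunits (1 of them is not reported here), the highest and lowest mean r of each complex, tissue forms with their partners, and outlying values. Members, lists and this rule were chosen with earlier results of these data known. Gene names are those of the array, all 92 found in RefSeq by symbol or, for 3, by synonym. Probe positions are mm9 as in the files, promoters GRCm38.p6. Sequences of 2 members on a chromosome kept out of print are not shown. Alternatives covered background correction, scaling, filters, slide, probe choice, array weights, the mice compared, and leaving out each mouse.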

Additional observations from a re-analysis of the deposited data

Results flagged for a closer look

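In each group of mice, the highest or lowest value of a member was set against the nearest of the others by Dixon's ratio, the gap over the range of the group. Of 267 such tests, 9 passed the critical value (3.37%), where chance alone passes about 5% of groups, and none of the 15 tests of complex means did.

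The ratio was 0.918 for Ndufaf5 in Conv + OM(HFD) mouse 29, which was far above the other four, and 0.794 for Cox7a2 in the same mouse, again on the high side. Conv + LM mouse 14 held 5 of the 9. It was far below the other mice for Cox6b1 (0.827), Ndufa13 (0.825), Ndufa3 (0.781) and Ndufa1 (0.778), all small accessory subunits, and above them for Sdhc (0.751), a membrane anchor of complex II. The other ratios were 0.737 for Ndufb5 in Conv + PBS mouse 2, on the high side, and 0.64 for Ndufa8, an accessory subunit of complex I, in Conv + PBS mouse 1, on the low side.

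For Cox6b1 the Conv + LM levels were 4.28, 4.196, 4.27, 4.28 and 4.27 in mice 13 to 17, so the ratio rests on a gap of under 0.1 on the log2 scale in a group that was otherwise tight. For Ndufa13 they were 8.72, 8.46, 8.72, 8.71 and 8.68.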

How the results depend on the processing

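No member passed an adjusted p of 0.05 under any of 12 alternatives or with any of the 16 mice left out. At an unadjusted p under 0.05, 0 to 4 members passed in Conv + OM(HFD) against Conv + PBS, 0 to 8 in Conv + LM against Conv + PBS and 0 to 4 in Conv + OM(HFD) against Conv + LM, over alternatives and mice left out. The median difference was below 0 in all 30 settings for both comparisons with Conv + PBS and in 21 of 30 for Conv + OM(HFD) against Conv + LM. With each mouse left out in turn it ran from -0.09 to -0.04, from -0.08 to -0.02 and from -0.04 to 0.02 in the 3 comparisons. Leaving out mouse 25, mouse 14 and mouse 14 gave -0.04, -0.02 and -0.04.

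Correlations moved more. The median r of member pairs was 0.24 with normexp background correction, 0.24 with quantile normalisation, 0.20 in the authors' table, 0.25 over every probe, 0.25 after subtracting each mouse's median deviation and 0.48 without assembly factors, genes that are no subunit and tissue forms. Without the filter on dim probes, complex I was at 0.80 and complex IV at 0.26. With quantile normalisation complexes II, III, IV and V were at 0.43, 0.84, 0.32 and 0.78, and in the authors' table at 0.35, 0.80, 0.41 and 0.74. After subtracting the median deviation complexes I, IV and V were at 0.78, 0.37 and 0.83. Over every probe complexes III and V were at 0.80 and 0.95, with the mean of the probes complex V at 0.95, with normexp complex V at 0.80, without mice 1 and 25 complex III at 0.85, and without tissue forms complex IV at 0.82. The cause was not tested. With each mouse left out, the median r of pairs ran from 0.33 to 0.41, and complexes I to V from 0.84 to 0.90, 0.60 to 0.84, 0.88 to 0.96, 0.49 to 0.66 and 0.88 to 0.93.

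Alternatives chosen after seeing the data were those by slide, without mice 1 and 25, without tissue forms, with outlier spots kept, with array brightness removed, and the subtraction for complexes. No paired analysis was possible because no mouse number occurs in more than 1 group. Signal lay closer to background for the 17 further probes dimmer than the 75th percentile of the array.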

Other observations

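Of genes not among the 92, the 6 whose level followed the mean of the 5 complexes most closely across the 16 mice were, in order, Abcd3 (r = 0.93 over deviations from group means), 2210018M11Rik (0.92), Acaa2 (0.90), Rab2a (0.89), Timm22 (0.89) and Uqcc2 (0.89). Abcd3 is a transporter of fatty acids into peroxisomes, Acaa2 the mitochondrial thiolase of fatty acid oxidation, Rab2a a small GTPase of membrane traffic, Timm22 the core of a carrier translocase of the inner membrane and Uqcc2 an assembly factor of complex III. They were picked out for this r. Among the 200 genes highest in r (0.988% of the 20240 genes that are no members) were 3 of 77 genes of the mitochondrial ribosome, 1 of 13 of the TCA cycle, 2 of 35 assembly factors of complexes II to V and none of the cytosolic ribosome or the proteasome.

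Of 7 clock genes and clock outputs, 5 had an r beyond 0.5 to either side with the mean of the 5 complexes and 2 did not. Pearson's r over the 16 mice was 0.71 for Clock (rho 0.77, r = 0.64 without the 2 mice farthest from the median), 0.61 for Arntl (rho 0.64, r = 0.45), -0.61 for Dbp (rho -0.63, r = -0.42), -0.59 for Nr1d1 (rho -0.59, r = -0.50) and -0.53 for Ciart (rho -0.49, r = -0.55). It was -0.27 for Per1 (rho -0.31, r = -0.31) and 0.15 for Per2 (rho 0.07, r = -0.02). The level of Arntl ran from -2.73 to 0.74 over all mice, and that of Dbp from 4.22 to 6.73. These 7 genes were looked at after the values of the subunits were known. Their part in the variation of the subunits was not tested.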
